A study of Homo sapiens with 6 samples.

Results

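The alpha-actinins ACTN1 and ACTN4 and filamin A (FLNA) were examined in NCI-H1975, a human lung adenocarcinoma cell line, after forced expression of SAM68. All rows of the splicing tables that carry these 3 gene symbols were taken, provided that the mean junction read count over the libraries was at least 10. Of 40 rows listed for the 3 genes, 39 met this rule, out of 78336 events listed for all genes. ACTN1 held 10 of them, ACTN4 15 and FLNA 14. By type, 32 were skipped exons (SE), 5 were mutually exclusive exons (MXE) and 2 were alternative 3′ splice sites (A3SS), and the row left out was a retained intron of FLNA. The read list of 1 FLNA A3SS row could not be divided uniquely into its 3 libraries, so 38 events were tested.

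Both groups were made from the same line by transfection for 48 h with 2 µg of plasmid per well. The control group received the empty PCDNA3.1 plasmid and the SAM68 group received PCDNA3.1-SAM68, with 3 libraries each. The cells are a single established line and the expression is transient, so the groups say nothing of other lines or of lasting expression. The study calls the replicates biological, and the labels name no shared batch or day. Junction reads of KHDRBS1, the gene of SAM68, were 311, 328 and 316 rpm (reads per 1000000 reads of the deepest event of each gene) in control libraries, against 1230, 1260 and 1276 rpm in the SAM68 libraries. The groups did not overlap (log2 fold change 1.98 ± 0.05, SE), and reads of the plasmid and of the cell's own gene cannot be told apart. The depth of the SE table was 16951876 to 19737729 reads per library. Of the epithelial markers, KRT8 was measured at 520 rpm in the first control library of the list and at 229 to 253 rpm in the other 5, and KRT18 at 471 to 530 rpm, whereas the tables list no event of EPCAM or CDH1, nor of the muscle genes DES, MYH11 and CNN1.

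Alpha-actinins are rod-shaped proteins that work as antiparallel dimers and crosslink actin filaments. ACTN1 and ACTN4 are the non-muscle members, found at stress fibres, focal adhesions and cell borders, and their calcium sensitivity resides in EF-hands near the C-terminal end. Filamin A is a large actin crosslinker that joins filaments at wide angles and also binds integrins and many signalling proteins. Alpha-actinin transcripts carry pairs of exons of which cells use mainly one, and the choice near the C-terminal end separates a non-muscle from a smooth-muscle form. SAM68 is an RNA-binding protein of the STAR family that binds A/U-rich RNA and takes part in the choice of exons.

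The exons that the results turn on are shown from GRCh38, 5′ to 3′ on the strand of the gene. ACTN4 (ENSG00000130402.11, chr19:38647649-38731589, plus strand) has a pair of coding exons of 86 nt each at position 8. Exon 8 at chr19:38710257-38710342 belongs to the canonical GENCODE transcript, and the alternative exon 8 at chr19:38711276-38711361 is coding in other transcripts. A splice variant with the alternative exon has been described in small-cell lung cancer. The pair is shown because every SAM68 library held fewer reads of the alternative exon than every control library, and capitals mark the bases that differ between them (21 of 86).
ACTN4 exon 8: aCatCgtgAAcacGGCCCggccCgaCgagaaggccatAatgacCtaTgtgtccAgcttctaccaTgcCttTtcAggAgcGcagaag
ACTN4 alternative exon 8: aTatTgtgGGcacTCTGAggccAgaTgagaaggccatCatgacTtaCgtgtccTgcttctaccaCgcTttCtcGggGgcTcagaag

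ACTN4 exon 11, chr19:38717927-38718074, is a coding exon of 148 nt whose length is not a multiple of 3. It is shown because skipping reads were almost confined to the SAM68 libraries. Capitals mark the exon and the lower case letters 20 bases of intron on either side.
ACTN4 exon 11: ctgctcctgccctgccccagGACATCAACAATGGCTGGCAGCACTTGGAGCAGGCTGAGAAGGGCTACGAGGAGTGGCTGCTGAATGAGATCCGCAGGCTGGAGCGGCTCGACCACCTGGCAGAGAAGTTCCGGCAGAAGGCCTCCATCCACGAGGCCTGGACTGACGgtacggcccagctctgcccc

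The C-terminal pair consists of an 81-nt exon, which gives the non-muscle form, and a 66-nt exon, which gives the smooth-muscle form. In ACTN4 they lie at chr19:38727946-38728026 (exon 19) and chr19:38728316-38728381. In ACTN1 (ENSG00000072110.13, chr14:68874128-68979440, minus strand) they lie at chr14:68878989-68879069 (exon 19) and chr14:68878458-68878523 (exon 20), and the canonical GENCODE transcript of ACTN1 carries both. The exons are shown to compare the paralogs, and capitals mark the bases that differ between ACTN4 and ACTN1. The 81-nt exons share 77.8% of their bases and the 66-nt exons 72.7%.
ACTN4 81-nt exon: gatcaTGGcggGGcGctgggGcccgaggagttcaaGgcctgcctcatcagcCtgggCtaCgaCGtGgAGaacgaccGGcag
ACTN1 81-nt exon: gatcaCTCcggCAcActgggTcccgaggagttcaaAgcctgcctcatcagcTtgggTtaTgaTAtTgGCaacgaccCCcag
ACTN4 66-nt exon: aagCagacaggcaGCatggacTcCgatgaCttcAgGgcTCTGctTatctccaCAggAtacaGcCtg
ACTN1 66-nt exon: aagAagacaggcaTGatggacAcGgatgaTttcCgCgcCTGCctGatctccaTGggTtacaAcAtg

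FLNA (ENSG00000196924.15, chrX:154348524-154374634, minus strand) has a coding exon of 24 nt, exon 30, at chrX:154357251-154357274. It is shown because it was the only exon of the 3 genes that was both included and skipped in a large share of well-covered transcripts, with capitals for the exon and 20 bases of intron on either side.
FLNA exon 30: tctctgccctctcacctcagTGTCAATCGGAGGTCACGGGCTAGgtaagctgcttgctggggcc

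Exon usage of the 3 genes was compared between control and SAM68 libraries by the percent spliced in (PSI), the share of the inclusion form after division of junction reads by the effective length of each form. For mutually exclusive exons, PSI is the share of the exon nearer the 5′ end of the gene. A difference (ΔPSI) is SAM68 minus control in percentage points, and a call needed both an adjusted p under 0.05 and a ΔPSI of 10 points or more in either direction. None of the 38 tested events was called and none passed the adjusted p alone. In the whole tables, 0.0256% of 66394 tested events were called and 0.0889% passed the adjusted p. The smallest adjusted p among the 38 events was 0.358 (quasi-binomial test with limma's moderation of the dispersion, Benjamini-Hochberg within each type of event). At an unadjusted p under 0.05 there were 3 events, all in ACTN4, against 3.68% of all events tested. They were 2 of the 32 SE events, a type in which 2.78% of all tested events reached this level, and 1 of the 5 MXE events, a type in which 7.77% did. The MXE event and 1 of the SE events concern the same exon 8 pair.

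Differences were small. The median absolute ΔPSI of the 38 events was 0.0821 points, and 34 events differed by less than 1 point. The largest ΔPSI was 2.89 points. Over all tested events the median was 1.24 points, and over the 9028 tested events that averaged 500 reads or more, a depth that 36 of the 38 events reached, it was 0.182 points. The direction was divided, with 21 events higher and 17 lower in the SAM68 libraries. PSI values of the groups did not overlap in 4 of the 38 events, against 6.11% of all events with reads in the 6 libraries. These were 3 SE events (4.72% of all such SE events) and 1 MXE event (12.0%).

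**Figure D1:**
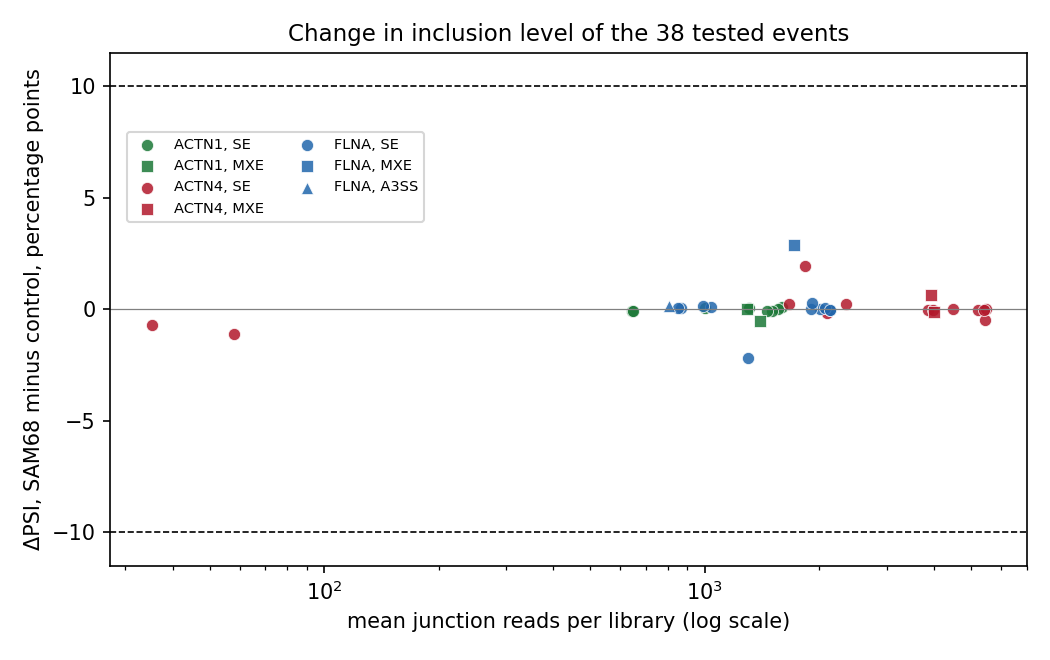
ΔPSI in percentage points of the 38 tested events of ACTN1, ACTN4 and FLNA against the mean junction reads per library on a log scale, with 1 point per event, colour for the gene, shape for the type, and dashed lines at the limit of 10 points. The events lie between -2.20 and 2.89 points, far from the limit.

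Most of the exons were close to constitutive. Of the 32 skipped-exon events, 24 had a PSI above 98% in both groups, namely 6 in ACTN1, 8 in ACTN4 and 10 in FLNA, and another 4 lay below 2% in both groups. Among all 47449 tested skipped-exon events, 52.4% had a mean PSI above 98%. In the 24 events, 86 of 144 library values held no skipping read, and no library held more than 19. The 32 events cover 26 exons, all preceded by AG and followed by GT in the genome, and 23 of these exons belong to the canonical transcripts. The length of 17 of the 26 exons was a multiple of 3.

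**Figure D2:**
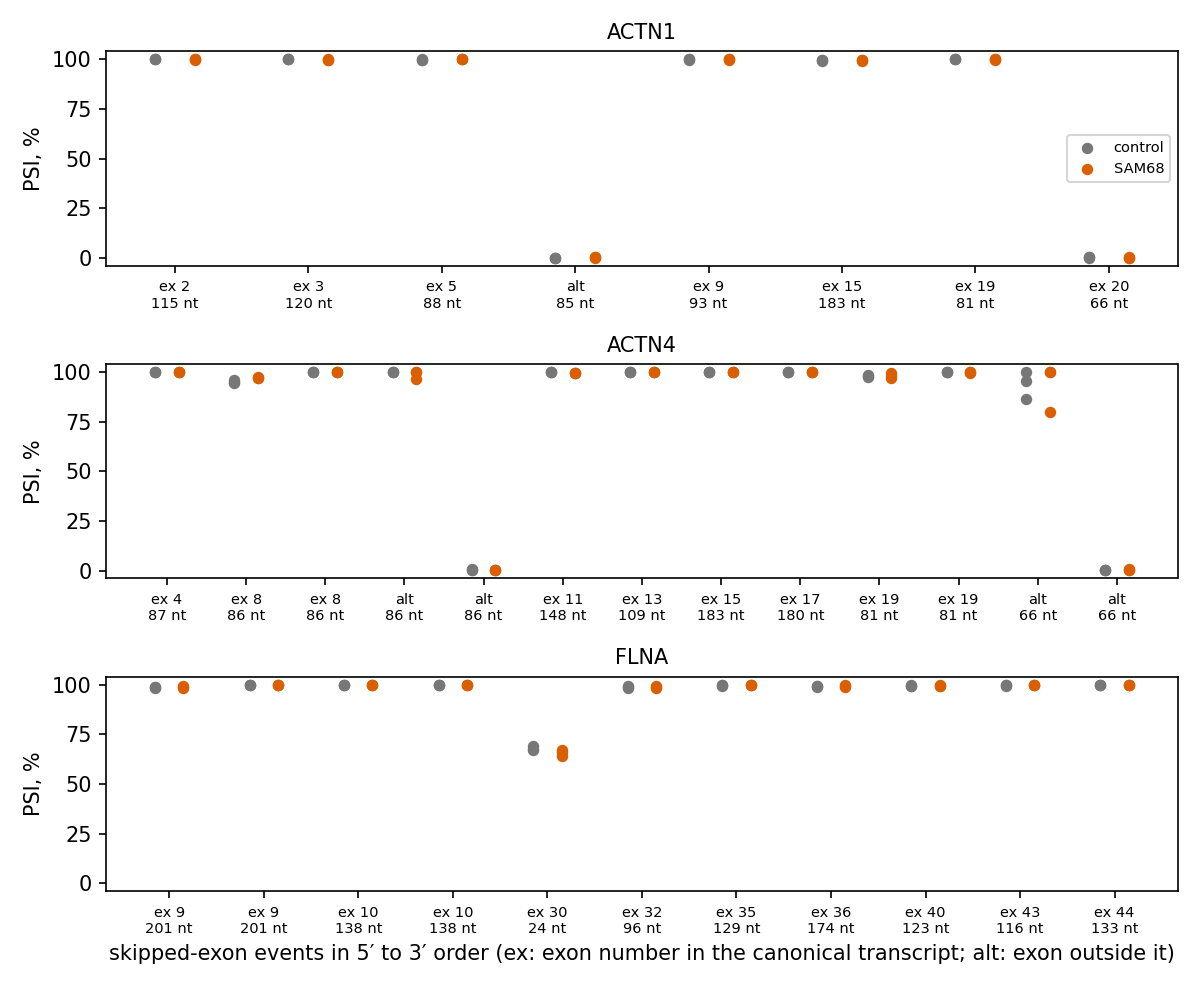
PSI in percent of the 32 skipped-exon events, from the 5′ to the 3′ end of each gene, with 1 point per library, grey for control and orange for SAM68. Almost all events lie at the top or the bottom of the scale in both groups, and FLNA exon 30 lies at 64.1% to 69.2%.

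ACTN4, a crosslinker concentrated at the moving edge of cells and in stress fibres, used exon 8 in nearly all transcripts. In the mutually exclusive event, the PSI of exon 8 was 98.3%, 98.1% and 98.2% in control libraries, against 99.1%, 98.7% and 98.7% in the SAM68 libraries. All 3 SAM68 libraries lay above all 3 control libraries. The alternative exon 8 thus held 1.80% ± 0.07 of the reads of the pair in control and 1.15% ± 0.18 in SAM68 libraries (SD, n = 3 each), a value that combines the junctions at both of its ends. The ΔPSI of exon 8 was 0.648 points (unadjusted p = 0.0072, adjusted p = 0.358), and an exact two-sided permutation test gave p = 0.1, the smallest that 3 against 3 libraries allow. Over the alternatives tried, the adjusted p ran from 0.291 to 0.872.

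The junction reads behind this share were 66, 78 and 70 for the alternative exon in control libraries, against 40, 48 and 45 in the SAM68 libraries. Every SAM68 library held fewer reads than every control library. On the rpm scale these are 11.8 ± 0.53 rpm and 7.79 ± 1.31 rpm, a mean 34.2% lower (SD, n = 3 each). Reads of exon 8 itself were 645 ± 15.7 rpm and 667 ± 21.2 rpm, and here the groups overlapped. For the pooled share of the alternative exon, the ratio of SAM68 to control was 0.634, with a 95% exact interval from 0.507 to 0.791 that covers counting error only.

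A related event compares exon 8 with the direct junction from exon 7 to the alternative exon. That direct junction held 53, 49 and 57 reads in control libraries, against 29, 33 and 31 in the SAM68 libraries. The row that holds the other end, the junction from the alternative exon to exon 9 together with any reads from exon 8 to the alternative exon, had 13, 35 and 14 reads in control, against 11, 15 and 14 with SAM68. In this mixed row the groups overlapped (exact two-sided permutation p = 0.6 on rpm), and the ratio of the pooled shares was 0.671 (95% exact interval 0.439 to 1.014, counting error only). The lower reads in every SAM68 library were therefore seen at the exon 7 end and in the sum of both ends, but not in the row that holds the exon 9 end. The rows also differed in level, with pooled shares of 2.89% and 1.69% in the exon 7 row and of 0.971% and 0.652% in the exon 9 row, for control and SAM68. PSI of exon 8 was 95.2%, 95.9% and 94.7% in control, against 97.7%, 96.9% and 97.0% in SAM68 libraries. The groups did not overlap (ΔPSI 1.92 points, unadjusted p = 0.0148, adjusted p = 0.763), and the event shares its reads with the mutually exclusive event, so it is no separate evidence. With the rows of exon 8 summed, ΔPSI was 0.612 points, and without length normalization it was 1.199 points. The skipping of the alternative exon by a direct junction from exon 7 to exon 9 was seen in 1 read in all, in a SAM68 library, so that its PSI, measured on a mean of 58 reads, was 100% in 5 libraries and 96.7% in the other.

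ACTN4 exon 11 was skipped in very few transcripts, and almost all skipping reads came from the SAM68 group. This event was singled out after its values were seen. The control libraries held 0, 1 and 0 skipping reads beside 5428, 5812 and 5289 inclusion reads, and the SAM68 libraries held 13, 8 and 17 beside 5899, 5010 and 5213. Each SAM68 library exceeded each control library, and 0 of 5428 reads allows a share of up to 0.0553%. PSI was 99.99% ± 0.02 in control, against 99.53% ± 0.17 in SAM68 libraries (SD, n = 3 each), a ΔPSI of -0.46 points. The ratio of the pooled skipping shares, which rests on a single control read, was 38.9, with a 95% exact counting interval from 6.57 to 1575.

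The test gave an unadjusted p of 0.000251 for exon 11 and an adjusted p of 0.662. The adjusted p depended on how the dispersion was estimated. When each event's dispersion was raised to at least 1 and then moderated over all events, an alternative chosen after the data were seen, the adjusted p was 0.00281. In the other alternatives it lay above the threshold, and the exact two-sided permutation test gave p = 0.1, the smallest possible. Without length normalization the ΔPSI was -0.23 points. Under each of these alternatives the size stayed below 1 point, under the 10 points a call needs.

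At the C-terminal end, ACTN4 used the 81-nt exon in nearly all transcripts. PSI of the 81-nt exon in the mutually exclusive event was 99.1%, 99.2% and 99.2% in control libraries, against 99.1%, 99.6% and 98.3% in the SAM68 libraries. The groups overlapped, and the spread was wider in the SAM68 group, in which the 66-nt exon held 36, 14 and 58 reads against 33, 32 and 29 in control. The mean share of the 66-nt exon was 0.841% ± 0.06 and 0.981% ± 0.64 (SD, n = 3 each, ΔPSI of the 81-nt exon -0.14 points, adjusted p = 0.907). Without the third SAM68 library in the listed order the difference changed sign, to 0.20 points. Where the 66-nt exon itself was tested as a skipped exon between exon 18 and the exon after it, a mean of 35.3 reads gave PSI values of 100%, 95.5% and 86.6% in control, against 80.0%, 100% and 100% in SAM68 libraries, and no direction can be read from them (adjusted p = 0.926).

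The event of ACTN4 with the most reads was exon 15, with a mean of 5469 reads per library. Its PSI was 100% in 5 libraries and 99.97% in the second control library of the list (adjusted p = 0.763).

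**Figure D3:**
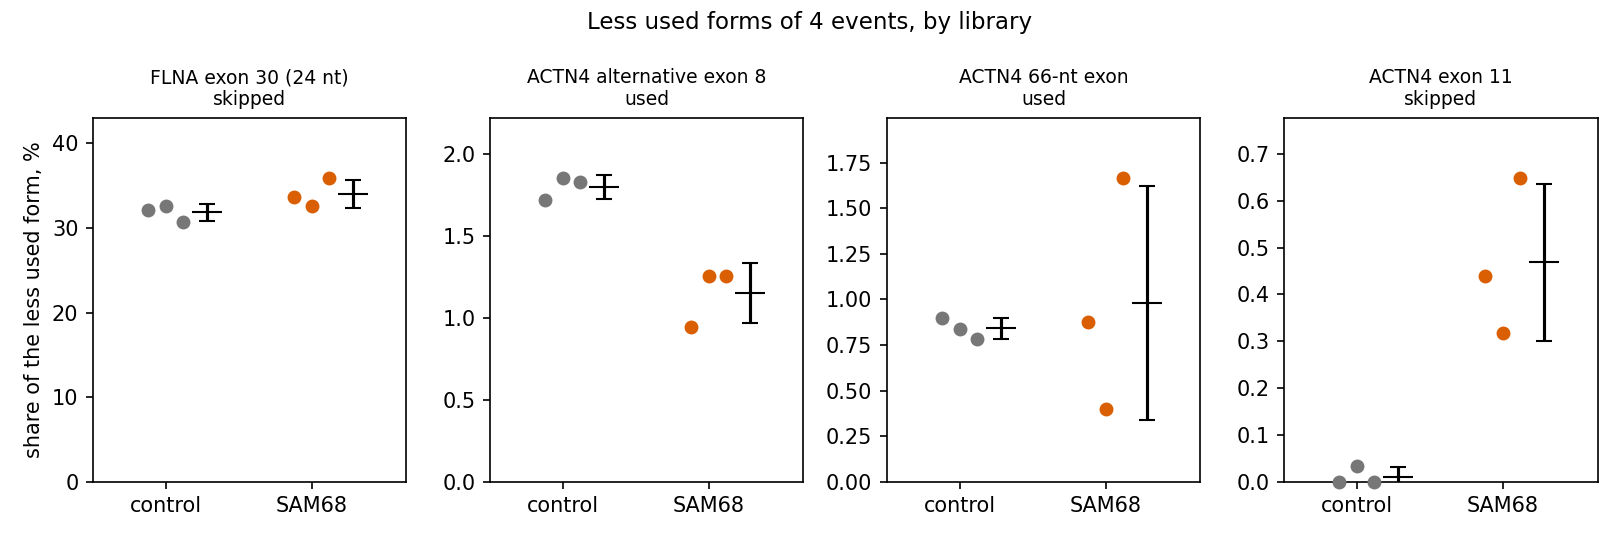
Share in percent of the less used form of 4 events in each library, on axes that start at 0 and differ between panels, with grey points for control, orange points for SAM68 and black marks for the mean ± SD of 3 libraries. The alternative exon 8 and exon 11 skipping of ACTN4 do not overlap between groups, the 66-nt exon overlaps, and FLNA exon 30 nearly touches at 32.6%.

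ACTN1, the other non-muscle alpha-actinin, also used mainly the 81-nt exon. In the mutually exclusive event the 81-nt exon reached 99.83% to 100% in the 6 libraries. The 66-nt exon, tested as a skipped exon after the 81-nt exon, held 0, 2 and 3 inclusion reads in control, against 0, 2 and 0 in SAM68 libraries, beside 590 to 681 skipping reads. The groups overlapped (PSI 0.163% ± 0.15 and 0.0752% ± 0.13, SD, n = 3 each, adjusted p = 0.77).

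An ACTN1 exon of 85 nt at chr14:68900862-68900946, annotated in no transcript classed as protein-coding, was also close to absent. It held 0, 2 and 0 inclusion reads in control, against 3, 3 and 0 in SAM68 libraries. In sequence it shares 72.4% of its aligned bases with the alternative exon 8 of ACTN4 and 65.5% with exon 8.

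The deepest ACTN1 event was exon 15, part of the rod, with PSI values of 99.7%, 99.4% and 99.6% in control, against 99.4%, 99.7% and 99.9% in SAM68 libraries. The groups overlapped (ΔPSI 0.10 points, adjusted p = 0.897), and the ΔPSI was 0.005 points without the second control or the third SAM68 library and 0.221 points without the first SAM68 library. Exons 2 and 3 of ACTN1, which code for part of the actin-binding domain, are listed as a mutually exclusive event, although each was included in at least 99.8% of reads as a skipped exon. Its PSI of 49.0%, 47.0% and 51.3% in control and of 47.0%, 49.4% and 49.5% in SAM68 libraries therefore sets the outer junctions of 2 constitutive exons side by side. The values overlapped (ΔPSI -0.50 points, adjusted p = 0.957), and leaving out 1 library gave -1.53 to 0.58 points.

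FLNA exon 30 was the exon with the most even use. It had PSI values of 67.8%, 67.4% and 69.2% in control libraries, against 66.4%, 67.4% and 64.1% in the SAM68 libraries. The second library of each list lay at 67.4%, so that the groups touched but did not cross. Inclusion was 68.1% ± 0.98 in control, against 65.9% ± 1.66 in SAM68 libraries (SD, n = 3 each), a ΔPSI of -2.20 points, and of -1.29 points without the third SAM68 library. The difference did not pass the test (unadjusted p = 0.246, adjusted p = 0.763), and the exact two-sided permutation test gave p = 0.1, the smallest it can give. The depth was 821 to 1026 inclusion reads and 329 to 442 skipping reads per library.

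The mutually exclusive event of FLNA pairs exons 9 and 10, which code for parts of the repeat rod and were each included in more than 98% of reads as skipped exons. PSI of exon 9 was 46.9%, 50.5% and 46.9% in control, against 52.2%, 48.6% and 52.2% in SAM68 libraries. The groups overlapped, although the ΔPSI of 2.89 points was the largest of the 38 events (unadjusted p = 0.0693, adjusted p = 0.683). As in ACTN1, it sets the outer junctions of 2 constitutive exons side by side. Tested as a skipped exon, exon 9 had PSI values of 98.9%, 98.3% and 99.1% in control, against 99.4%, 98.6% and 99.1% in SAM68 libraries (ΔPSI 0.28 points, adjusted p = 0.763). Leaving out 1 library gave 0.031 points (without the second control library) to 0.496 points (without the second SAM68 library).

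The deepest FLNA event was exon 32, with 10, 13 and 19 skipping reads in control, against 11, 15 and 16 in SAM68 libraries. PSI was 99.2%, 99.0% and 98.5% against 99.2%, 98.7% and 98.6%, and the groups overlapped (ΔPSI -0.04 points, -0.25 to 0.11 points with 1 library left out, adjusted p = 0.991). An alternative 3′ splice site of FLNA that starts the exon chrX:154353001-154353221 was used in 0, 0 and 0 reads of the control libraries and in 4, 0 and 0 reads of the SAM68 libraries, beside 737 to 880 reads of the other site (adjusted p = 0.841). These are the counts as printed, which match the listed levels, but spreadsheet regrouping of digits leaves another reading of this list possible. The remaining A3SS row, whose SAM68 list could not be divided, held 1198, 1262 and 1179 inclusion reads and 0, 2 and 0 skipping reads in control. The 24 tested events beyond the rule for full description, apart from ACTN4 exon 11 and the pair at exon 19, differed by -0.18 to 0.25 points, with unadjusted p-values of 0.14 to 0.987.

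SAM68 is known to bind A/U-rich RNA, with UAAA and UUAA as core sequences. The letters TAAA and TTAA were searched on the strand of the gene in each of the 26 exons and in 200 nt of intron on either side, and a stretch such as TTAAA counts for both. TAAA was found upstream of 3 exons, within 1 and downstream of 4. Among 38685 exons of tested skipped-exon events, 59.7% held it upstream, 30.8% within and 60.4% downstream. TTAA was found upstream of 7 exons, within 0 and downstream of 3, against 60.9%, 26.5% and 59.8%. Both ACTN4 exon 8 and exon 11 had a TTAA upstream, and neither motif occurred in or beside the alternative exon 8 or FLNA exon 30. TTAA also lay upstream of ACTN1 exons 2 and 9, ACTN4 exons 4 and 17 and FLNA exon 44, whose PSI values overlapped between the groups. These counts describe letters in fixed windows and say nothing of binding.

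Levels of the 3 genes were compared through the deepest event of each gene, since no counts per gene are among the tables. In rpm per nucleotide of effective length, the level of ACTN4 was 3.49 ± 0.1 in control, against 3.67 ± 0.08 in SAM68 libraries. That of FLNA was 1.60 ± 0.04 and 1.64 ± 0.01, and that of ACTN1 was 1.01 ± 0.01 and 1.08 ± 0.01 (SD, n = 3 each). The order ACTN4, FLNA, ACTN1 held in all 6 libraries. Within a library, ACTN4 stood 2.07 to 2.31 times above FLNA, and FLNA 1.49 to 1.61 times above ACTN1. The level depends on the event chosen, since nearly constitutive events with at least 500 reads ranged from 0.554 to 1.62 within FLNA and from 0.525 to 1.19 within ACTN1, but from 3.05 to 4.09 within ACTN4.

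**Figure D4:**
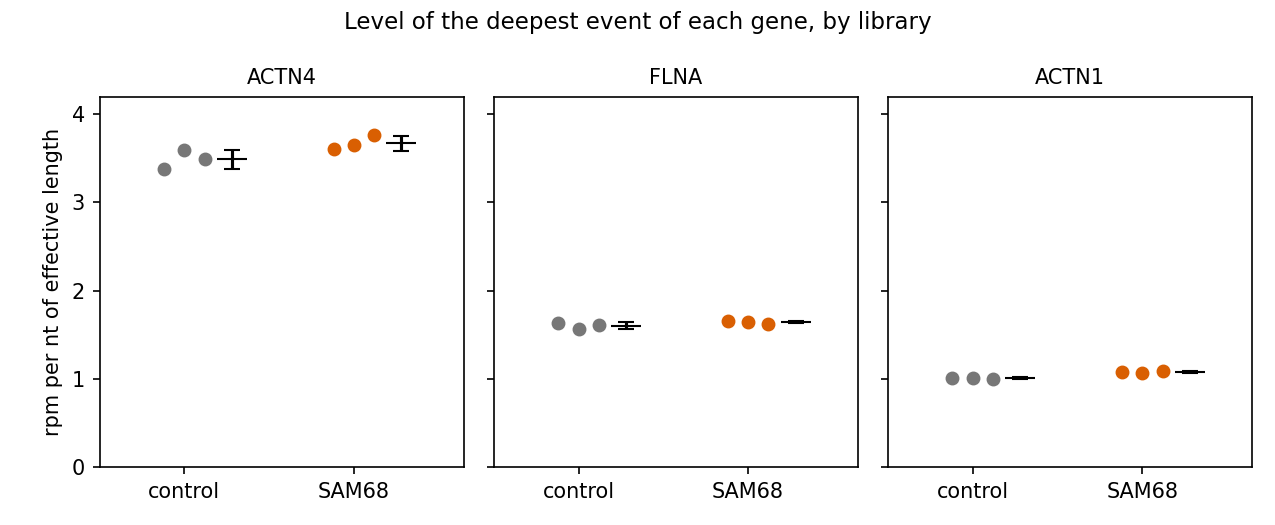
Level, in rpm per nucleotide of effective length, of the deepest event of ACTN4, FLNA and ACTN1 in each library, with grey points for control, orange points for SAM68 and black marks for the mean ± SD of 3 libraries. ACTN4 lies highest, near 3.49 in control, and ACTN1 lowest, near 1.01.

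Between groups, none of the 3 genes passed the test on log2(rpm + 0.5) with limma, which found 42 of 10147 genes (0.414%) at an adjusted p under 0.05, of which 12 were higher (0.118%) and 30 lower (0.296%) in SAM68 libraries. With scaling to the median gene, an alternative added after the data were seen, 25 genes passed, 14 higher and 11 lower. Without the second control library of the list 4 genes passed, and without the second SAM68 library 101. ACTN1 had 263, 262 and 260 rpm in control, against 280, 277 and 282 rpm in SAM68 libraries. The groups did not overlap, with SAM68 higher, as was the case for 6.04% of all genes tested, but the difference was small (log2 fold change 0.10 ± 0.06, SE, adjusted p = 0.525). It changed sign, to -0.01, when the reads of all skipped-exon events of the gene were summed.

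ACTN4 had 879, 933 and 907 rpm in control, against 936, 948 and 978 rpm in SAM68 libraries. Its groups were also apart, by a small margin (log2 fold change 0.07 ± 0.04, SE, adjusted p = 0.528). With the reads of all skipped-exon events of ACTN4 summed, the log2 fold change was 0.03. FLNA had 367, 349 and 360 rpm against 370, 368 and 363 rpm, which overlapped (0.03 ± 0.05, SE, adjusted p = 0.839). The 95% intervals of the log2 fold change ran from -0.02 to 0.22 for ACTN1, from -0.02 to 0.16 for ACTN4 and from -0.08 to 0.14 for FLNA. In these bulk libraries, fewer cells with an RNA and less of it per cell cannot be told apart.

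Other genes of the actin crosslinks and adhesion sites to which these proteins belong were looked up in a list of 32, among them FLNC, the spectrins, vinculin, the talins, zyxin and the PDZ-LIM proteins that bind alpha-actinin. Of these, 24 genes had tested events, 185 in all. None was called and none passed the adjusted p, whose smallest value was 0.440. An unadjusted p under 0.05 was found in 7 of the 185 events (3.78%), close to the 3.68% of all events, and their median absolute ΔPSI was 0.454 points.

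Among list events that averaged 50 reads or more, the largest differences were found in 4 genes. PALLD, an actin-bundling protein that binds alpha-actinin, had an exon of 672 nt with PSI values of 73.1%, 92.5% and 90.9% in control, against 93.4%, 100% and 83.8% in SAM68 libraries, on a mean of 57.7 reads. The groups overlapped widely. CTTN, a regulator of branched actin, had a mutually exclusive event at 65.5%, 64.2% and 65.8% in control, against 58.0%, 57.7% and 61.3% in SAM68 libraries. Here the groups did not overlap (ΔPSI -6.20 points, unadjusted p = 0.0138, adjusted p = 0.440), as was the case for 12.0% of all MXE events with reads in the 6 libraries. The exons of this event were not examined as skipped exons.

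ITGB1, an integrin subunit bound by alpha-actinin and filamin, had an exon of 217 nt at 11.02%, 7.76% and 9.92% in control, against 14.8%, 20.5% and 8.40% in SAM68 libraries, which overlapped. SPTAN1, a spectrin of the membrane skeleton, had a mutually exclusive event at 55.4%, 57.9% and 49.0% against 50.01%, 51.1% and 47.8%, which also overlapped. The exons of the SPTAN1 event were not examined as skipped exons either. By junction reads, none of the 24 genes passed the adjusted p of limma, with 0.110 as the smallest value and 3 of 24 genes at an unadjusted p under 0.05, a level that 12.1% of all genes reached. Their median log2 fold change was -0.10, and that of all 10147 genes was -0.03.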

How the data were processed

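RNA of 3 control and 3 SAM68 libraries was sequenced by the authors as paired-end reads, filtered and trimmed with fastp, and aligned with HISAT2 to GRCh38 (versions 0.20.0 and 2.1.0 in the submitters' processing notes, which also name CASAVA 1.4). The authors ran rMATS, whose deposited tables hold raw inclusion and skipping junction read counts, effective lengths and inclusion levels as lists of 3 values per group, beside the authors' p-values, FDR and difference of levels, which were not used. The version of rMATS, the annotation and the treatment of multimapping reads are not given in the sources used here. The lists print no replicate numbers, and the study's own naming of the comparison gave each list its group.

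PSI was computed as the length-normalised share of inclusion reads. Each event with a mean of at least 10 reads was fitted with a quasi-binomial model in R 4.3.3, its Pearson dispersion moderated within the type of event by squeezeVar of limma 3.58.1 with a prior from events whose rarer form averaged at least 5 reads, and never below 1. P-values were adjusted over all events of the type. Spreadsheet damage left 113 A3SS events undivided, and another 679, taken as printed, also allow another reading. Gene levels were tested with limma on log2(rpm + 0.5) of each gene's deepest event. The count model planned was not run, although the lists hold read counts. Exons and sequences came from GRCh38 with GENCODE 44. Both tests were run on simulated data with far larger differences than those found in the 3 genes, and the simulated gene call also required a minimum fold change. The simulation therefore does not cover differences as small as those reported. No 2 libraries of a group agreed within sampling noise (chi-square per degree of freedom at least 2.99 over skipped-exon events). Exact intervals and floors (3 reads) cover counting error only, as reads carried no molecular identifiers. Values per library are given for events past the adjusted p, with a mean PSI of 5% to 95% at 20 or more reads, among the 3 largest ΔPSI of a gene at 50 or more reads, or with the most reads of a gene. The genes, the gene list and the tests were chosen with earlier results of these data known. ACTN4 exon 11, the mutually exclusive 81-nt and 66-nt pairs, the 85-nt exon of ACTN1 and the FLNA splice site were described beyond that rule, after their values were seen.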

Additional observations from a re-analysis of the deposited data

How the results depend on the processing

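No event of ACTN1, ACTN4 and FLNA and none of the gene list was called under any alternative run, namely limma on the logit of PSI, each event's own dispersion, a dispersion raised to at least 1 before moderation (added after seeing the data), no length normalization, a mean of at least 20 reads, no filter beyond 1 read in each group, all 5 types adjusted together, no limit on ΔPSI and each library left out. For the described events of ACTN1, ACTN4 and FLNA, ΔPSI stayed below the limit for a call in every run. The limit by itself therefore excluded a call, and runs that kept it cannot show how stable the adjusted p was. Only the run without the limit rested on the adjusted p. Over the whole tables the alternatives called between 2 and 93 events, against 17 in the reported test. The lowest and the highest counts came under the 2 other estimates of dispersion. ACTN4 exon 11 passed the adjusted p only with the raised dispersion (ΔPSI -0.46 points). No paired analysis was possible because the read lists carry no replicate numbers. Planned edgeR and DESeq2 fits were not run.

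The sign of ΔPSI changed in 5 of 17 events described, and the cause was not tested. Leaving out 1 library in turn gave the 66-nt exon of ACTN4, tested as a skipped exon, a ΔPSI of -4.43 to 5.97 points (-0.70 with all libraries), and summing its rows gave 0.43. The ranges were -0.25 to 0.11 for FLNA exon 32, -1.53 to 0.58 for the ACTN1 exon 2 and 3 event, -0.43 to 0.20 for the 81-nt exon of ACTN4 and -0.027 to 0.056 for that of ACTN1. The count of genes past the adjusted p, 42, was 25 with median scaling and 4 to 101 without 1 library. The ACTN1 level changed from 0.10 to -0.015 on the log2 scale with all its events summed. For the exon 8 pair of ACTN4 and for FLNA exon 30 the groups did not overlap, so leaving out 1 library could not change the direction. The ΔPSI then ranged from 0.544 to 0.702 points for ACTN4 exon 8 and from -2.91 to -1.29 for FLNA exon 30. The 66-nt and 85-nt exons of ACTN1 rest on 0 to 3 inclusion reads per library.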
